A study of Mus musculus with 6 samples.

Results

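Gene deserts are long stretches of DNA without protein-coding genes, and open sites within them are often distal enhancers, insulators or the edges of regulatory domains that act on genes far away. To examine such sites in AE9a leukaemia, peaks of accessible chromatin were taken that were annotated as intergenic, lay outside annotated repeats and CpG islands, and were more than 200000 bp from the nearest transcription start site (TSS). Of the 175929 peaks in the table, 1196 met this rule, and all of them belonged to the 122399 distal peaks, which lay more than 3000 bp from a TSS. The rule used annotation and distance alone and no tag count.

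Open chromatin was profiled with ATAC-seq, where adapters are inserted by a transposase wherever DNA is exposed, in 3 oil libraries (replicates 1, 2 and 4) and 3 tamoxifen libraries (replicates 1, 3 and 4). All 6 came from mouse leukaemia cells of genotype Usp18+/f UBCER-Cre that expressed AE9a, a truncated form of the leukaemia fusion protein AML1/ETO, and that had been transplanted into recipient mice. The Cre is active in all tissues only after tamoxifen, so the tamoxifen cells were Usp18+/Δ, whereas the oil cells kept the same genotype and received the vehicle. Once ill, the mice received oil or tamoxifen, and 3 days after injections began their spleens were sorted for Lin- c-Kit+ GFP+ cells. Tamoxifen itself, Cre activity and the loss of 1 Usp18 allele, which encodes a protease that restrains interferon signalling, cannot be told apart in this contrast. Here n counts libraries. No label ties a library to a mouse of its own. The methods of the study describe sets of sorted cells from 3 mice per group, 1 set of which was used for paired ATAC-seq. Elsewhere the study gives fewer ATAC-seq replicates than there are libraries here, without naming the cells. The p-values thus measure only the spread between libraries, which may be between mice or technical.

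Most of the gene-desert peaks were small and of ordinary height. Their median width was 243 bp (201 to 743 bp), and the median of their mean normalised tags, that is tags divided by the size factor of the library, was 40.9, against 44.1 for all distal peaks. Per kb of peak width the medians were 157 normalised tags for gene-desert peaks and 150.3 for distal peaks. The median distance to a TSS was 305134.5 bp, 198 peaks lay beyond 500000 bp and 33 beyond 1000000 bp. The peaks fell on 20 chromosomes, most often on chromosome 14 (118) and least often on chromosome 19 (18). The nearest protein-coding gene bodies on either side (GENCODE M21, mm10) divided them into 375 intervals, of which 156 held a single peak and 73 held 5 or more.

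The label of gene desert did not hold for every peak. Although each peak was over 200000 bp from the TSS assigned to it in the table, 224 of the 1196 overlapped a gene in GENCODE, 129 of them a long intergenic non-coding RNA (lincRNA), 42 a segment of an antigen receptor and 29 a protein-coding gene. Antigen receptor gene arrays, in which V, D and J segments are joined in lymphocytes, held 90 of the peaks (7.53%), and 71 of these lay in the T cell receptor alpha and delta array on chromosome 14. The remaining 1106 peaks are given separately below where a value rests on them.

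Library depth was 57.4 to 74.7 M (1 M is 1000000) mapped tags, of which 60628 to 80813.5 fell in gene-desert peaks. Over the gene-desert peaks pairs of oil libraries gave a chi-square of 1.14 to 1.24 when divided by its degrees of freedom, where counting error alone gives about 1. Tamoxifen replicates 1 and 3 differed by 1.40, whereas tamoxifen replicate 4 differed from them by 3.49 and 3.69. Tamoxifen replicate 4 thus stood apart from its group, and results that rest on it are given with and without it. Among marker genes of cells that the gate could still hold, the summed normalised tags of peaks within 100000 bp were 26436 to 27220 after oil and 24646 to 24777 after tamoxifen for the erythroid list (19 of 20 genes had a peak, and Ahsp had none). The ranges of the groups overlapped for the T cell list (19 of 20 genes, Cd8b1 had none) and for the mature myeloid list (21 of 24, Camp, Cd177 and Lyz2 had none). They did not overlap for the B cell list (13 of 16, Bank1, Ms4a1 and Vpreb1 had none), at 6313 to 6330 after oil and 6357 to 6487 after tamoxifen. The part of such cells in the results below was not tested.

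Sequences are shown for the 3 called peaks with the smallest adjusted p and for the peak with the most tags per kb (mm10, plus strand, 5′ to 3′, GRCm38 reference, the central 300 bases where the peak was longer). Capitals mark matches on either strand to the motif of RUNX (TGTGGT), the family that AE9a is derived from, or to those of GATA factors (AGATAA), PU.1 (GAGGAAGT), AP-1 (TGANTCA), CEBP (TTGCNNAA) or CTCF (by its consensus). The Snx10-Skap2 peak held 1 RUNX and 1 GATA match, the Kcnj2-Sox9 peak 2 GATA matches, the Slc4a3-Epha4 peak none (0) of these motifs, and the peak near Efr3a 1 CEBP match.
Snx10-Skap2 peak, chr6:51767962-51768261: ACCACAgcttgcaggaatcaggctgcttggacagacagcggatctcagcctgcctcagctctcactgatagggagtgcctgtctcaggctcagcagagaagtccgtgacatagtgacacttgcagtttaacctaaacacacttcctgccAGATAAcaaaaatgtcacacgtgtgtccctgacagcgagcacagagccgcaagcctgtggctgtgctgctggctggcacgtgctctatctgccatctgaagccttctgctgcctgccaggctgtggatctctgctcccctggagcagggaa
Kcnj2-Sox9 peak, chr11:112050461-112050670: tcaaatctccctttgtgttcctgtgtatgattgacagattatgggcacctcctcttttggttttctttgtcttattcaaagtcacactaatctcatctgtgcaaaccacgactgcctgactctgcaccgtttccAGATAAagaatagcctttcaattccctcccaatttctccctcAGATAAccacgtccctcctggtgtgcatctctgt
Slc4a3-Epha4 peak, chr1:75771211-75771510: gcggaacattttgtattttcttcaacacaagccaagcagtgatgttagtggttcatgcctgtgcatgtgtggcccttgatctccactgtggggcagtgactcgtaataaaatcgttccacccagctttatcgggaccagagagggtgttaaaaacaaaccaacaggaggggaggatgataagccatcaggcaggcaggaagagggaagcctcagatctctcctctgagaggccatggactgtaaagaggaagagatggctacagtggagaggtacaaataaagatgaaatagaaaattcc
Efr3a peak, chr15:65455273-65455572: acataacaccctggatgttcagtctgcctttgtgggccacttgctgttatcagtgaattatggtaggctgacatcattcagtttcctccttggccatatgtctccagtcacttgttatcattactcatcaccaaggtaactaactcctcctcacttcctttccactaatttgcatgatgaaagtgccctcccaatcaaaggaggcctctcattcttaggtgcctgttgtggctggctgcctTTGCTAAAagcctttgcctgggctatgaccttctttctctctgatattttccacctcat

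The gene-desert peaks past both limits, on adjusted p and on fold change, were all more accessible after tamoxifen. DESeq2 was fitted on every distal peak, and a peak was called when its adjusted p was under 0.05 and its fold change exceeded 2. By this rule 26 of the 1196 gene-desert peaks were called, or 2.17%, against 0.851% of all distal peaks. All 26 were higher after tamoxifen and 0 were lower, where 0.763% of distal peaks were called higher and 0.0882% lower. The table was merged from a peak list of each group, and 14 of the 26 stemmed from the tamoxifen list alone. Those 14 entered the table only through the group in which they were high, so their calls and direction are no independent evidence. Of the 856 gene-desert peaks from both lists 12 were called (1.40%), and the distal share was not split by list. For comparison, 294 of the 35774 other intergenic distal peaks outside repeats were called (0.822%, 274 higher and 20 lower), as were 17 of the 541 intergenic peaks over 200000 bp from a TSS that lay in repeats or CpG islands (3.14%, 16 higher and 1 lower). At an unadjusted p under 0.05, 161 gene-desert peaks were higher and 45 lower, whereas the background shares were 6.63% and 3.31%. Without the limit on fold change, 37 were higher and 1 lower at an adjusted p under 0.05 (background 1.23% and 0.18%).

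The count depended on the libraries and on the test. Without tamoxifen replicate 4, 62 gene-desert peaks were called, 42 higher and 20 lower (5.18%, distal background 2.02%). Leaving out any 1 of the other 5 libraries left 6 to 8, all higher (0.502% to 0.669%, distal background 0.239% to 0.462%). The edgeR quasi-likelihood test called 48, 44 higher and 4 lower, against a background of 1.22%, and these included all 26. Outside the antigen receptor arrays 24 of 1106 peaks were called (2.17%), and among the 972 peaks that overlapped no GENCODE gene 20 were called (2.06%).

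**Figure D1:**
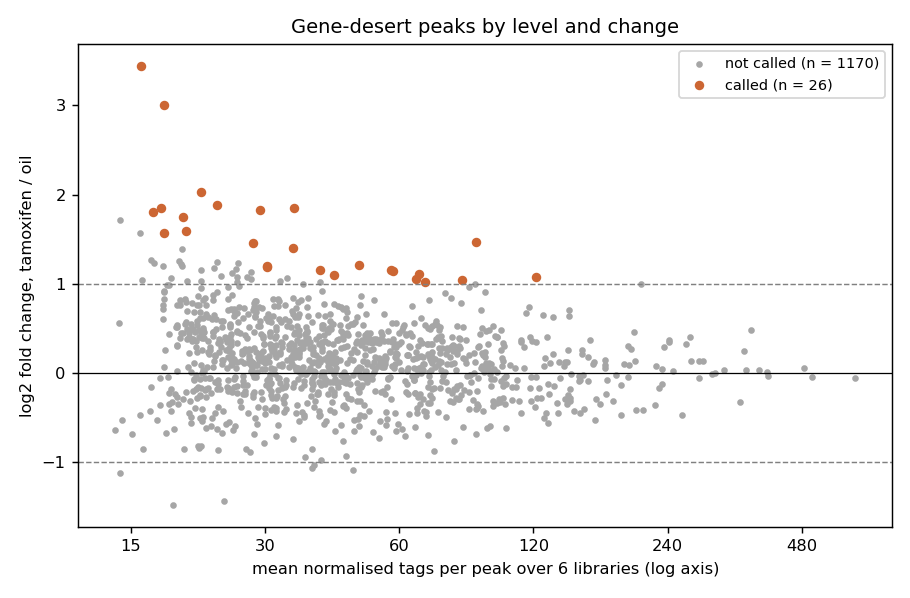
Each of the 1196 gene-desert peaks is plotted by its mean normalised tags over the 6 libraries (horizontal, log axis) and its DESeq2 log2 fold change, tamoxifen against oil (vertical), with the 26 called peaks in orange and lines at log2 of 1 and -1. The called peaks all lie above the upper line and mostly at low tag counts, and the cloud of grey points is shifted above 0, with a median over all peaks of 0.14.

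The shift was not limited to the called peaks. The median log2 fold change was 0.14 over the gene-desert peaks (quartiles -0.13 and 0.41), -0.0043 over all distal peaks and 0.0057 over the other intergenic peaks outside repeats. It was 0.19 over the 541 intergenic peaks over 200000 bp from a TSS that lay in repeats or CpG islands. The shift was thus not particular to peaks outside repeats. A log2 fold change above 0 was found in 64.6% of gene-desert peaks, in 66.2% of those 541 peaks and in 49.4% of distal peaks. The 3 tamoxifen values all lay above the 3 oil values in 257 gene-desert peaks (21.5%, background 12.4%) and all below in 76 (6.35%, background 10.6%). Among the 541 peaks these shares were 24.2% and 5.91%. Relative to the oil mean, on the log2(normalised tags + 1) scale, the median over gene-desert peaks was -0.0098, -0.013 and 0.025 in oil replicates 1, 2 and 4, and 0.13, 0.18 and 0.10 in tamoxifen replicates 1, 3 and 4. All 3 tamoxifen medians lay above all 3 oil medians, while over all distal peaks the 6 medians lay between -0.0082 and 0.0027. Tags in gene-desert peaks made up 0.746%, 0.745% and 0.766% of distal tags in the oil libraries and 0.780%, 0.799% and 0.820% in the tamoxifen libraries, with means of 0.752% ± 0.0122 and 0.7996% ± 0.0201 (SD, n = 3 each). The groups did not overlap, but with 3 against 3 an exact permutation test cannot give a p under 0.1.

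The median log2 fold change rose with distance from the TSS up to the range of 100000 to 200000 bp, below the limit, and was about level from there to 500000 bp. Among intergenic peaks outside repeats, the median log2 fold change was -0.04 at 3000 to 10000 bp, -0.0046 at 10000 to 30000 bp, 0.05 at 30000 to 100000 bp and 0.14 at 100000 to 200000 bp. Within the gene deserts it was 0.14 at 200000 to 300000 bp, 0.13 at 300000 to 500000 bp, 0.18 at 500000 to 1000000 bp and 0.21 in the 33 peaks beyond. The share called was 0.429% at 3000 to 10000 bp, 1.04% at 30000 to 100000 bp, 2.03% at 100000 to 200000 bp and 2.56% at 200000 to 300000 bp, then 1.46% at 300000 to 500000 bp, 2.42% at 500000 to 1000000 bp and 3.03%, or 1 peak, beyond. On either side of the limit, the 127 peaks at 190000 to 200000 bp had a median log2 fold change of 0.22 with 3 called, and the 96 gene-desert peaks at 200000 to 210000 bp had one of 0.07 with 2 called. Base composition changed with distance too, with a median GC content of the central 200 bp of 50.5% at 3000 to 10000 bp, 47.5% at 200000 to 300000 bp and 46.0% over all gene-desert peaks. Within ranges of GC content the median log2 fold change of gene-desert peaks was 0.0155 at 30 to 40%, 0.11 at 40 to 44%, 0.18 at 44 to 48%, 0.16 at 48 to 52%, 0.13 at 52 to 56% and 0.29 at 56 to 68%, against -0.0267 to 0.0042 for distal peaks in the 6 ranges.

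**Figure D2:**
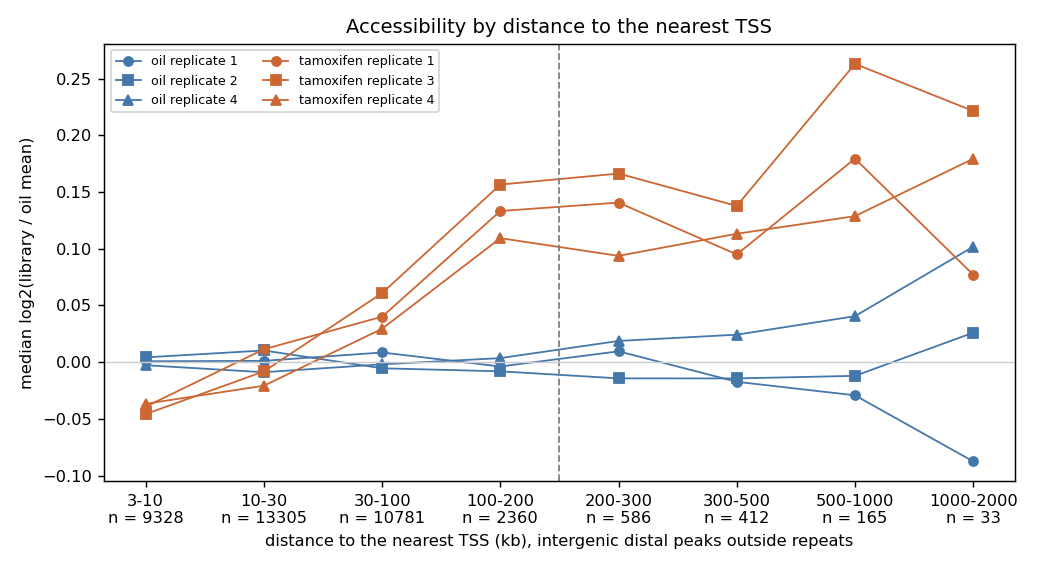
Median log2 ratio of each library to the oil mean (vertical) by distance to the nearest TSS in kb (horizontal, 8 ranges with their number of peaks) for intergenic distal peaks outside repeats, with a dashed line at the 200 kb limit. The 3 tamoxifen libraries (orange) lie below the oil libraries (blue) at 3 to 10 kb and above them at 30 to 1000 kb, and overlap with them again in the last range of 33 peaks.

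The median log2 fold change was largest among low peaks. The 73 gene-desert peaks with under 20 normalised tags had a median log2 fold change of 0.52 and 7 calls (9.59%), where distal peaks of that level had a median of -0.15 and 0.693% called. The 503 with 20 to 40 tags had a median of 0.21 and 9 calls (1.79%, distal 0.749%), the 395 with 40 to 80 tags one of 0.14 and 7 calls (1.77%, distal 1.20%), and the 225 with 80 or more one of 0.0346 and 3 calls (1.33%, distal 0.658%). The table was made by merging a peak list of each group, so that a peak open in 1 group alone had to be called there to enter it. Of the gene-desert peaks, 71.6% stemmed from both lists, 16.5% from the tamoxifen list alone and 12.0% from the oil list alone, whereas of all distal peaks 12.3% stemmed from the tamoxifen list alone and 18.5% from the oil list alone. The median log2 fold change was 0.13 in the 856 peaks from both lists, 0.58 in the 197 from the tamoxifen list and -0.35 in the 143 from the oil list. These lists came from the same libraries and are no independent evidence. Of the 26 called peaks, 12 stemmed from both lists, 14 from the tamoxifen list and 0 from the oil list. The 7 called peaks with under 20 tags all stemmed from the tamoxifen list alone. They entered the table only through the group in which they were high, so their share of 9.59% is no independent evidence either.

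The 26 called peaks lay on 13 chromosomes in 24 intervals, at 204846 to 1089688 bp from a TSS. Their median was 18.2 normalised tags after oil and 48.1 after tamoxifen, and their log2 fold changes ran from 1.02 to 3.44 with a median of 1.43. Tamoxifen replicate 4 was the lowest of its group in 17 of them. Those named here are the 8 with the smallest adjusted p and 4 more beside genes of the lists used below. Of these, the peaks near Sox9, Pcdh7, Mir148a, Mir181a-1, Adgb, Irx3 and Got2 stemmed from the tamoxifen list alone. They entered the table only through the group in which they were high, so their p-values are no independent support.

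The smallest adjusted p belonged to a peak on chromosome 6 (51767953 to 51768270) between Snx10, which encodes a sorting nexin of the endosome, and Skap2, an adaptor of Src family kinases in myeloid cells, 222818 bp from the Snx10 TSS. Its normalised tags were 40.1, 49.2 and 51.2 in oil replicates 1, 2 and 4 and 128, 166 and 100.1 in tamoxifen replicates 1, 3 and 4. All tamoxifen values were higher than all oil values, and the log2 fold change was 1.47 (SE 0.242, DESeq2 adjusted p = 1.58e-06). The interval held a 2nd gene-desert peak, and the sum of both had a log2 fold change of 0.67. The call at the 1st peak held without any 1 library.

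Few tags were found after oil at a pair of the named peaks. A peak on chromosome 11 (112050461 to 112050670), 973640 bp from Kcnj2, a potassium channel gene, and 731554 bp from Sox9, a transcription factor of cartilage and gonad development, had 2.79, 4.43 and 1.78 normalised tags in the oil libraries and 35.0, 23.99 and 26.6 in the tamoxifen libraries. The groups were far apart, with a log2 fold change of 3.44 (SE 0.635, DESeq2 adjusted p = 3.89e-05), and the oil values rest on few tags. A peak on chromosome 5 (60600113 to 60600345) between Pcdh7, a protocadherin gene, and G6pd2 had 2.23, 3.44 and 5.34 tags after oil and 39.3, 43.0 and 13.3 after tamoxifen, where replicate 4 was well below the other two. Its log2 fold change was 3.00 (SE 0.596, DESeq2 adjusted p = 0.000209). DESeq2 gave no adjusted p for either peak without any 1 oil library or without tamoxifen replicate 1.

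On chromosome 1, a peak between the anion exchanger gene Slc4a3 and Epha4, an ephrin receptor gene (75771193 to 75771528), was already open after oil. It had 75.2, 64.0 and 94.7 normalised tags after oil and 163, 176 and 158 after tamoxifen, so the 3 tamoxifen libraries were close to each other and all higher. The log2 fold change was 1.08 (SE 0.200, DESeq2 adjusted p = 4.05e-05), and without oil replicate 2 it was 0.96, below the fold limit (adjusted p = 0.0164). A further peak on chromosome 1 (137468513 to 137468869) lay between the nuclear receptor gene Nr5a2 and Ptprc, which encodes the leukocyte antigen CD45, 508065 bp and 593992 bp from these genes, and its nearest TSS was that of the microRNA gene Mir181a-1. It rose from 12.3, 12.3 and 14.2 to 52.8, 48.5 and 35.4 normalised tags, with a log2 fold change of 1.83 (SE 0.373, DESeq2 adjusted p = 0.00036), and stayed called without any 1 library.

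Called peaks at 2 sites per interval were found in 2 intervals, named here after their values were seen. Between Npvf, a neuropeptide gene, and Nfe2l3, a CNC family transcription factor gene, on chromosome 6, the peak at 51059992 to 51060255, 209787 bp from the microRNA gene Mir148a, had 12.8, 16.2 and 16.0 tags after oil and 59.0, 71.4 and 33.1 after tamoxifen. Its log2 fold change was 1.85 (SE 0.367, DESeq2 adjusted p = 0.000209), and its adjusted p was 0.0596 without tamoxifen replicate 3. The neighbour at 51064946 to 51065183 had a log2 fold change of 1.20. Between the Iroquois homeobox genes Irx3 and Irx5 on chromosome 8, transcription factors of embryonic patterning, the peak at 92028363 to 92028576, within the lincRNA Gm28516, had 16.2, 14.3 and 15.1 tags after oil and 40.8, 51.9 and 30.8 after tamoxifen. The log2 fold change was 1.46 (SE 0.369, DESeq2 adjusted p = 0.0111), and the adjusted p was 0.0899 to 0.402 without any 1 library other than tamoxifen replicate 4. A 2nd called peak started at 92026565 (log2 fold change 1.57), and the 4 others of the 6 gene-desert peaks there had log2 fold changes of 0.59 to 1.57 without passing the test.

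A peak on chromosome 10 (10234821 to 10235027) that overlapped the lincRNA Gm31904, near the androglobin gene Adgb, had 5.57, 4.92 and 14.2 tags after oil and 36.9, 41.3 and 26.2 after tamoxifen (log2 fold change 2.03, SE 0.457, DESeq2 adjusted p = 0.00225). Its adjusted p was 0.0679 when oil replicate 1 was left out, 0.104 without oil replicate 2 and 0.139 without tamoxifen replicate 3, and DESeq2 gave none without tamoxifen replicate 1. A peak on chromosome 8 (82157933 to 82158272) lay 30019 bp from the body of Inpp4b, a phosphoinositide phosphatase gene, and 173360 bp from that of Il15, a cytokine of natural killer and memory T cells. It rose from 47.9, 44.3 and 34.7 to 93.5, 72.0 and 105.6 normalised tags, the only one of these 8 in which tamoxifen replicate 4 was the highest. The log2 fold change was 1.11 (SE 0.255, DESeq2 adjusted p = 0.003), and the call was lost without oil replicate 2 (adjusted p = 0.0544), oil replicate 4 (0.14), tamoxifen replicate 1 (0.0564) and, by the fold limit, tamoxifen replicate 4 (log2 fold change 0.98).

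**Figure D3:**
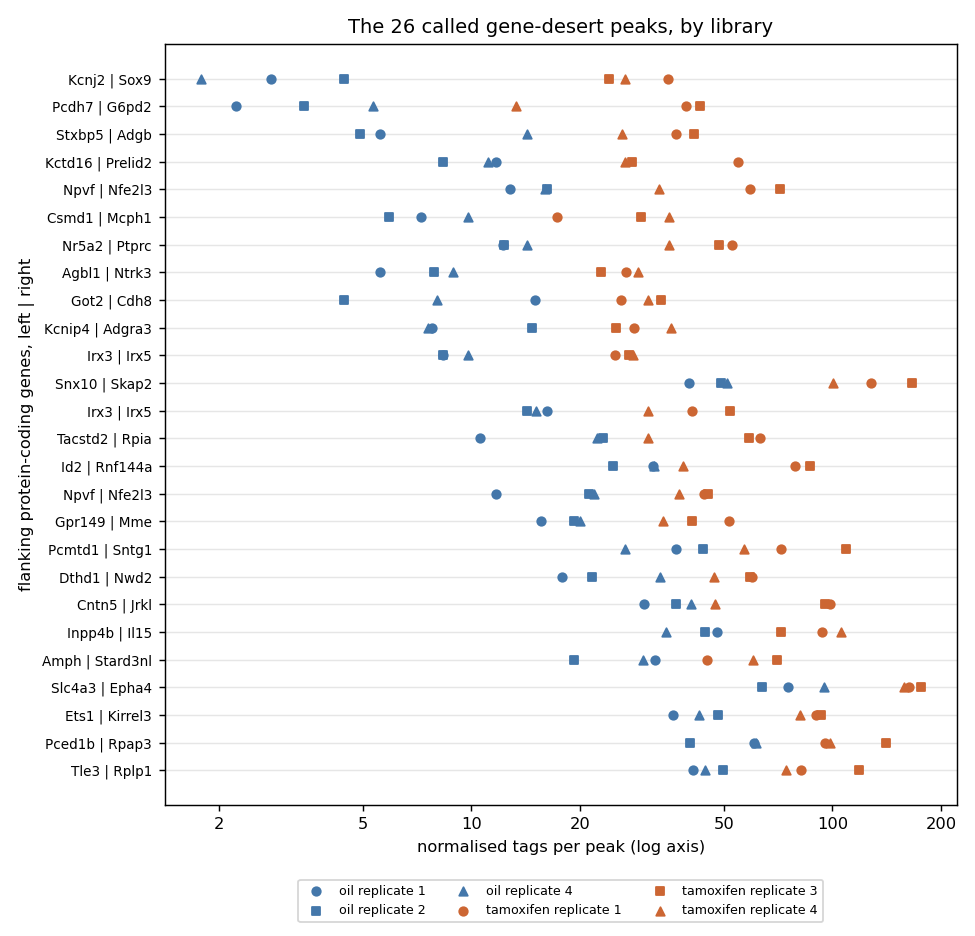
Normalised tags per peak (horizontal, log axis) of the 26 called gene-desert peaks in each of the 3 oil (blue) and 3 tamoxifen (orange) libraries, ordered by fold change and labelled by the protein-coding genes on either side. In each of the 26 peaks the 3 tamoxifen libraries lie above the 3 oil libraries, and tamoxifen replicate 4 (triangles) is the lowest tamoxifen library in 17.

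Of the 5 most accessible gene-desert peaks, 4 did not pass the test. The 5 with the most normalised tags per kb lay near Efr3a (chromosome 15, 65455269 to 65455577, 2050 tags per kb, the peak shown above), Stard3nl (chromosome 13, 19177747 to 19177957, 1826 per kb), Pcmtd1 (chromosome 1, 7397605 to 7397805, 1789 per kb), P2ry1 (chromosome 3, 60785241 to 60785467, 1772 per kb) and between Got2 and Cdh8 (chromosome 8, 96151093 to 96151313, 1668 per kb). Efr3a encodes a membrane anchor of a phosphatidylinositol 4-kinase, and P2ry1 a purine receptor. The Efr3a peak had 695, 644 and 602 normalised tags after oil and 584, 592 and 683 after tamoxifen, with overlapping groups and a log2 fold change of -0.06 (SE 0.13, DESeq2 adjusted p = 0.941). For the peaks near Stard3nl, Pcmtd1 and P2ry1 the log2 fold changes were 0.0346, 0.0307 and -0.0327, each with an SE of 0.132 to 0.138. The peak between Got2, a mitochondrial transaminase gene, and Cdh8, a cadherin gene, had 335, 299 and 290.01 tags after oil and 434, 459 and 394 after tamoxifen, a smaller rise that passed the test without reaching the fold limit (log2 fold change 0.48, SE 0.141, DESeq2 adjusted p = 0.0486). Its adjusted p was 0.0527 with TMM factors, 0.0651 with size factors from distal tags, 0.06 with GC-dependent size factors, and 0.182 to 0.525 without any 1 library other than tamoxifen replicate 4 (0.00297). The interval held 9 gene-desert peaks, of which 1 was called, at 96160032 to 96160254, with 15.04, 4.43 and 8.01 tags after oil and 25.9, 33.5 and 30.8 after tamoxifen (log2 fold change 1.74, DESeq2 adjusted p = 0.0164, 0.354 without oil replicate 2 and 0.332 without tamoxifen replicate 3). DESeq2 gave it no adjusted p when oil replicate 1, oil replicate 4 or tamoxifen replicate 1 was left out.

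To see whether whole stretches moved, tags were summed over the gene-desert peaks of each interval, and the 375 sums were fitted together with all other distal peaks, so that p-values were adjusted over 121578 features. Of the 375 sums, 9 were called, all higher, and 17 were higher and 0 lower at an adjusted p under 0.05 without the fold limit, where 0.754% and 1.23% of all features were higher. Most of these features were single peaks, whereas a sum held up to 71 peaks, so the shares are not of like features. In 156 of the 375 intervals the sum was a single peak, which does not describe a whole stretch. At an unadjusted p under 0.05 in the same DESeq2 fit, 80 sums were higher and 12 lower. In the fit of single distal peaks the shares at that limit were 6.63% higher and 3.31% lower. Adjusted over the 375 intervals alone, as the design had it, 12 were called (3.2%, all higher), and 31 were higher (8.27%) without the fold limit. In all 17 intervals the tamoxifen sums lay above the oil sums, but the 17 were selected on these same values, so this adds no support. The smallest adjusted p belonged to the interval between the cadherin genes Cdh10 and Cdh12, which held a single peak (chromosome 15, 19857669 to 19857892) with 133, 131 and 153 normalised tags after oil and 282, 318 and 238 after tamoxifen. At a log2 fold change of 1.00 (SE 0.171, DESeq2 adjusted p = 4.91e-06) its fold fell just short of 2, so it was not called, and it is named here after its values were seen. The 6 peaks between Irx3 and Irx5 summed to 98.0, 70.4 and 89.0 tags after oil and 202, 230.4 and 148 after tamoxifen (log2 fold change 1.15, SE 0.210, DESeq2 adjusted p = 2.91e-05). Between Slc4a3 and Epha4 the sum of 2 peaks had a log2 fold change of 1.06 (SE 0.184), and between Npvf and Nfe2l3 that of 3 peaks had one of 1.07 (SE 0.229). Both called peaks between Irx3 and Irx5 stemmed from the tamoxifen list alone, as did the peak near Mir148a between Npvf and Nfe2l3. Sums that hold such peaks, and the counts of intervals that include them, are no independent evidence of a gain.

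The 5 intervals with the most gene-desert peaks were not called. The 71 peaks between Olfr1507, an olfactory receptor gene, and Dad1, an oligosaccharyltransferase subunit gene, which make up the T cell receptor alpha and delta array (chromosome 14, 52775930 to 54040979), summed to 4329, 4273 and 4174 normalised tags after oil and 4212, 4356 and 4457 after tamoxifen. These groups overlapped, with a log2 fold change of 0.0278 (SE 0.100, DESeq2 adjusted p = 0.968). Between Plekhb2 and the heparan sulfate sulfotransferase gene Hs6st1 (chromosome 1, 35388232 to 35865565) the 21 peaks summed to 1322, 1288 and 1232 tags after oil and 1069, 1058 and 1219 after tamoxifen, all lower (log2 fold change -0.20, SE 0.117, DESeq2 adjusted p = 0.605). Between Id2, an inhibitor of E-box transcription factors, and Rnf144a (chromosome 12, 25330028 to 25891077) the 17 peaks summed to 944, 848 and 967 tags after oil and 1066, 1143 and 1043 after tamoxifen, all higher (log2 fold change 0.24, SE 0.118, DESeq2 adjusted p = 0.487). Of these, 1 was called, at 25438387 to 25438703. The 17 peaks between Runx1, the haematopoietic transcription factor whose fusion gave rise to AE9a, and Setd4 (chromosome 16, 93028713 to 93153077) summed to 1856, 1846 and 1775 after oil and 1632, 1697 and 1845 after tamoxifen, with overlapping groups (log2 fold change -0.08, SE 0.11). The 15 between Fbxo15 and Neto1 on chromosome 18 summed to 733, 692 and 810 after oil and 481, 501 and 721 after tamoxifen, where replicate 4 lay within the oil range and the other two below it (log2 fold change -0.40, SE 0.159, DESeq2 adjusted p = 0.28).

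The other antigen receptor arrays held fewer peaks. The 11 peaks in the immunoglobulin heavy chain array summed to 369 ± 22.3 normalised tags after oil and 449 ± 67.4 after tamoxifen, the 4 in the T cell receptor gamma array to 188 ± 31.4 and 275 ± 26.6, and the 4 in the kappa light chain array to 109 ± 23.4 and 166 ± 41.6 (SD, n = 3 each). The groups did not overlap for the gamma array, in which 1 peak was called (chromosome 13, 19182335 to 19182541, log2 fold change 1.10). They overlapped for the other 2, and 1 kappa peak was called (chromosome 6, 68201511 to 68201774, log2 fold change 1.40).

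The motif content of the gene-desert peaks is given beside that of other distal peaks, without a test. The shares were not matched for base composition, and the median GC content was 46.0% in gene-desert peaks and 49.5% in all distal peaks. In the central 200 bp, on either strand, the GATA motif was found in 316 gene-desert peaks (26.4%), in 17.6% of the other intergenic peaks outside repeats and in 17.6% of distal peaks. CTCF, the insulator protein, had a consensus match in 99 (8.28%), against 5.21% and 3.46%. The CEBP motif was found in 9.20% (distal 6.67%), the interferon-stimulated response element (ISRE, by its consensus) in 2.09% (0.802%), the heat shock element (GAANNTTC) in 5.77% (4.11%), MYB (AACNGNC) in 26.3% (24.2%), the IRF half-site (GAAACNGA), which can overlap an ISRE, in 3.93% (3.39%) and the glucocorticoid half-site (AGNACA) in 50.7% (48.1%). Motifs found in a smaller share than among distal peaks were AP-1 at 5.52% (7.37%), RUNX at 19.4% (20.9%), PU.1 at 3.43% (4.25%), NF-kB (by its consensus) at 3.43% (4.42%) and the oestrogen half-site (AGGTCA) at 11.0% (12.0%). For the E-box (CAGNTG) the shares were 47.3% and 47.6%. Short motifs of high frequency such as the half-sites occur often in any sequence, and a match is not evidence of binding.

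Accessibility of GATA-containing gene-desert peaks differed among the tamoxifen libraries. Their median log2 fold change was -0.04, against 0.18 in the peaks without the motif. By library, their median relative to the oil mean was 0.0115, -0.0286 and 0.0296 in oil replicates 1, 2 and 4 and -0.14, -0.07 and 0.17 in tamoxifen replicates 1, 3 and 4, so that tamoxifen replicate 4 lay on the other side of the oil libraries from the other two. Over all distal peaks with the motif the medians were -0.0793, -0.0813 and 0.0608 in tamoxifen replicates 1, 3 and 4. The split was thus not particular to gene-desert peaks. In the gene-desert peaks without the motif the 3 tamoxifen medians were 0.21, 0.25 and 0.0942, all above the oil values of -0.0161 to 0.0231. Of the 26 called peaks, 10 held the GATA motif, all higher. These were 3.16% of the 316 gene-desert peaks with the motif, where 1.35% of distal peaks with it were called. GATA was found in 28.2% of the 934 distal peaks called higher. Without tamoxifen replicate 4, the 62 calls divided by motif, with GATA in 16 of the 20 lower calls and 14 of the 42 higher calls, and RUNX in 0 of the 20 lower calls and 18 of the 42 higher calls. For all distal peaks without that library, GATA was found in 42.6% of the 758 lower calls and 23.5% of the 1716 higher calls, and RUNX in 13.7% and 35.5%. GATA factors drive erythroid and mast cell programmes. The summed tags near erythroid markers were 24646, 24777 and 24737 in tamoxifen replicates 1, 3 and 4, all below the oil range of 26436 to 27220. Replicate 4 lay between replicates 1 and 3 there, unlike in the GATA-containing peaks. The part of GATA factors or of such cells in this pattern was not tested.

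For peaks with RUNX or CTCF motifs the medians of all 3 tamoxifen libraries lay above those of the oil libraries, as they did over all gene-desert peaks. The 232 gene-desert peaks with a RUNX motif had library medians of 0.12, 0.14 and 0.18 after tamoxifen against -0.0159 to 0.0315 after oil. Their median log2 fold change was 0.14, no different from the 0.14 of gene-desert peaks without the motif. The peaks with it had 7 calls (background among distal peaks with the motif 1.50%). At an unadjusted p under 0.05, 37 of them were higher and 1 was lower. Over all distal peaks 6.63% were higher and 3.31% lower at that limit, which is the background for the counts below too. The 99 with a CTCF match had library medians of 0.26, 0.32 and 0.0390 after tamoxifen against -0.0039 to 0.0059 after oil, a median log2 fold change of 0.21 and 0 calls by DESeq2 (background among distal peaks with a match 0.118%), with 8 higher and 0 lower at an unadjusted p under 0.05. Gene-desert peaks without a CTCF match had a median log2 fold change of 0.13. Over all distal peaks with a CTCF match the library medians were 0.0759, 0.0789 and -0.0329 after tamoxifen. The 25 peaks with an ISRE had a median log2 fold change of 0.12, against 0.14 in gene-desert peaks without one. Those 25 had 0 calls by DESeq2 (background among distal peaks with an ISRE 1.22%), with 5 higher and 2 lower at an unadjusted p under 0.05.

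**Figure D4:**
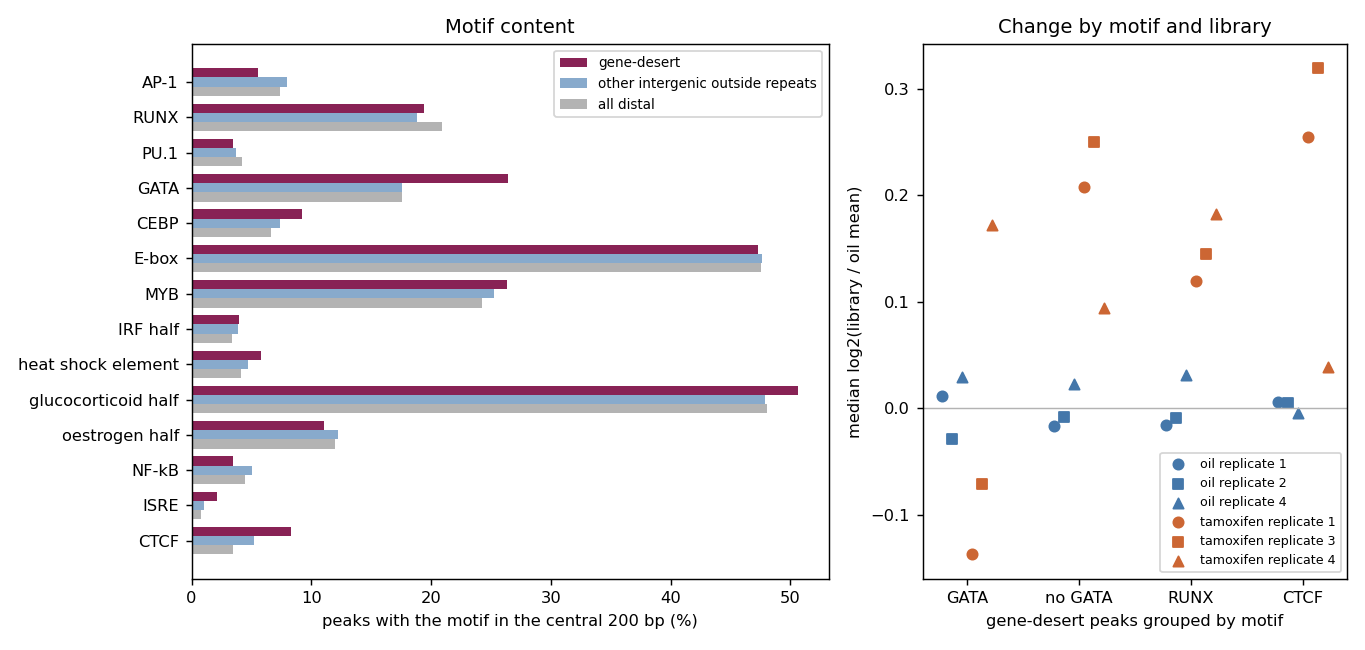
Left, percent of peaks with each motif in the central 200 bp for the 1196 gene-desert peaks, the other intergenic peaks outside repeats and all distal peaks (bars from 0). Right, median log2 ratio to the oil mean in each oil (blue) and tamoxifen (orange) library for gene-desert peaks with a GATA motif, without one, with RUNX or with CTCF, where tamoxifen replicate 4 (triangle) lies highest in the GATA group and lowest of the tamoxifen libraries in the CTCF group.

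The genes that border the peaks were described with lists. Genes of neuronal adhesion and axon guidance bordered 115 gene-desert peaks, of which 4 were called (3.48%) with a median log2 fold change of 0.21, and 21 were higher and 3 lower at an unadjusted p under 0.05. Developmental transcription factors bordered 91, with 3 called (3.30%), a median of 0.17, and 13 higher and 3 lower. Haematopoietic regulators bordered 95, with 2 called (2.11%), a median of 0.13, and 15 higher and 6 lower. These values stand beside 2.17% called and a median of 0.14 for all gene-desert peaks. At an unadjusted p under 0.05, 161 of all 1196 gene-desert peaks were higher and 45 lower, against 6.63% and 3.31% of distal peaks. B cell markers bordered 1 peak and had the nearest TSS of 6 more, and p53 damage genes bordered 3, with 0 called in either list by DESeq2 and with 1 and 0 at an unadjusted p under 0.05. No gene-desert peak (0) was bordered by a gene of the interferon-stimulated, NF-kB inflammatory, T cell, erythroid or mature myeloid lists. The lists share some peaks, such as that at 33260232 to 33260478 on chromosome 9 between Ets1, a transcription factor of blood and endothelium, and the adhesion gene Kirrel3, within the lincRNA Gm32171. It had 36.2, 48.2 and 42.7 tags after oil and 90.2, 93.2 and 81.3 after tamoxifen (log2 fold change 1.06, SE 0.245, DESeq2 adjusted p = 0.00333), and its adjusted p was 0.0527 to 0.11 without oil replicate 1, oil replicate 4, tamoxifen replicate 1 or tamoxifen replicate 3. Farthest from a TSS among the called peaks, at 1089688 bp, was one next to the contactin gene Cntn5 (chromosome 9, 12016056 to 12016278), with 30.1, 36.9 and 40.5 tags after oil and 98.3, 95.4 and 47.3 after tamoxifen. Its log2 fold change was 1.14 (SE 0.296, DESeq2 adjusted p = 0.0139), and its adjusted p was 0.0903 to 0.404 without any 1 library other than tamoxifen replicate 4.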

How the data were processed

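The deposited table holds raw tags per merged peak, an estimated count in steps of 0.5 tags, which the authors made by mapping with Bowtie2 to mm10, calling peaks per group and merging and annotating them with HOMER, counting no more than 3 tags at a position and without normalising. The deposited peak score was used only as a filter. Which TSS annotation gave the distances is not given in the sources used here. No column of unknown sample was met.

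Tags were rounded to whole numbers, and DESeq2 1.42.0 (R 4.3.3, Wald test, Benjamini-Hochberg) was fitted on 122399 distal peaks without covariates, with edgeR 4.0.16 (robust quasi-likelihood test) as an alternative. The fit was tested on simulated data. Depth was 57.4 to 74.7 M mapped tags per library. Medians by library used log2(normalised tags + 1). An interval was the stretch between the nearest GENCODE M21 protein-coding gene bodies. Antigen receptor arrays were runs of GENCODE segment genes less than 1000000 bp apart. Motifs were searched in the central 200 bp of the GRCm38 reference, and GC content was taken there. Neighbouring peaks share regulatory domains and are not independent.

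Named peaks were the 8 called peaks per direction with the smallest adjusted p and non-overlapping groups, the 5 with the most tags per kb, the 5 intervals with the most peaks, intervals with 3 or more called peaks (0 were found), and the 6 best called peaks beside a listed gene. The peaks, the lists (haematopoietic regulators, interferon-stimulated, NF-kB inflammatory, p53 damage, T cell, B cell, erythroid, mature myeloid, neuronal adhesion, developmental factors), the motifs and the tests were chosen with earlier results of these data known. A GC-dependent normalisation, the exclusion of antigen receptor arrays or of peaks in GENCODE genes, and the joint fit of intervals were added after seeing the data. Settings were varied 1 at a time.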

Additional observations from a re-analysis of the deposited data

How the results depend on the processing

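The gain in gene-desert peaks kept its direction under every alternative run, with a median log2 fold change of 0.11 to 0.19, the latter in the 198 peaks over 500000 bp from a TSS (5 called, 5 higher). The calls were fewer or more under some settings, and the cause was not tested where none is given. The count of 26 was 48 with edgeR (44 higher, 4 lower), 12 among peaks with a score at or above the distal median (11 higher, 1 lower, 2.05% of 585 tested, distal background 0.998%), and 74 among the 3556 peaks over 100000 bp from a TSS (73 higher, 1 lower). Lower calls numbered 1 with TMM factors, with size factors from distal tags, with a mean of at least 20 raw tags and without a fold limit, and 5 at an adjusted p under 0.1. With 1 library left out the calls ran from 6 to 62, the higher ones from 6 to 42 and the lower ones from 0 to 20, the extremes coming without oil replicate 2 and tamoxifen replicate 4. Calls over intervals ran from 4 to 23 (19 higher, without tamoxifen replicate 4) with 1 library left out, and were 5 with the score limit and 31 without a fold limit. Joint fitting with the other distal peaks gave 9 interval calls.

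Both groups have a replicate 1 and a replicate 4, which no label links to a shared mouse, and deviations from the group means correlated at -0.0505 and 0.0410, so these numbers were not taken as pairs. A replicate block over these 4 libraries left few degrees of freedom. Under it 0 gene-desert peaks, 0 higher and 0 intervals were called by DESeq2 (20 higher and 4 lower at an unadjusted p under 0.05). An adjusted p was given for 796 of the 1196, and 32 distal peaks were called. All 26 reported calls kept their direction. That was all but fixed in advance, as their groups did not overlap and the block used the same libraries, so it adds no support. The peak near Pcmtd1 turned with the block (log2 fold change -0.0059), without oil replicate 4 (-0.0164) and without tamoxifen replicate 3 (-0.0243, up to 0.064 without tamoxifen replicate 4), and that near P2ry1 without oil replicate 1 (0.011, down to -0.0956 without tamoxifen replicate 4).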

Other observations

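No gene-desert peak (0) was called lower after tamoxifen by DESeq2, while 45 of 1196 were lower at an unadjusted p under 0.05 (distal background 3.31%). The 3 lower peaks with the smallest p, named here after their values were seen, lay near Rsl24d1 (chromosome 9, 73380777 to 73381066), Trps1, a GATA-type zinc finger repressor gene (chromosome 15, 50605837 to 50606090), and Tusc1 (chromosome 4, 93567970 to 93568195). The Rsl24d1 peak had 98.6, 83.1 and 97.4 normalised tags in oil replicates 1, 2 and 4 and 38.4, 43.5 and 70.3 in tamoxifen replicates 1, 3 and 4, with a log2 fold change of -0.87 (SE 0.254, DESeq2 adjusted p = 0.0456) that did not reach the fold limit. The Trps1 peak had 28.4, 39.4 and 38.7 tags after oil and 8.63, 7.25 and 23.4 after tamoxifen (log2 fold change -1.43, SE 0.424, DESeq2 adjusted p = 0.0508). The Tusc1 peak had 35.1, 20.7 and 26.2 tags after oil and 8.63, 10.0 and 11.0 after tamoxifen (log2 fold change -1.48, SE 0.443, DESeq2 adjusted p = 0.0567). The groups did not overlap in any of the 3, and in each of them tamoxifen replicate 4 lay nearest to the oil libraries.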
